A study of Mus musculus with 4 samples.

Results

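Trim29, Nectin4, Prom2, Pof1b, Rab25, Ap1m2, Fmn1 and Slc40a1 were examined here in mouse somitic gastruloids in which the transcription factor ZEB2 can be degraded. These 8 genes, of 24831 listed in the count tables, were picked because they stood high after the degrader dTAG-13, so their rise is a description and was not tested again. All 8 had enough reads to be among the 13602 genes tested. Somitic gastruloids are embryonic stem cell aggregates that lengthen in culture and lay down trunk tissues, including somites. The untreated and the dTAG-13 groups held 2 libraries each, and both were made from the E14_triple reporter line, in which an HA epitope and the FKBP12F36V degron are joined to the endogenous Zeb2 gene. Both groups were seeded with 300 cells per well, given 3 µM CHIR99021, which activates WNT signalling, after 48 h, and moved into 10% Matrigel at 96 h. The treated group also received 100 nM dTAG-13 at 72 h and again at 96 h, and the other group, titled untreated, had DMSO as the control named in the growth protocol. An untagged line given dTAG-13 was not analysed here, and the labels do not say how many gastruloids went into a library or whether the replicates were separate cultures. Apart from intervals of counting error, every error and p-value below therefore measures how far these libraries lie apart, a spread that may be technical.

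ZEB2 binds DNA at E-box sequences of the CACCTG type and is known as a repressor of genes of epithelial cells, the polarised sheets that keep distinct apical and basolateral surfaces. Most of the 8 genes belong to the equipment of such cells. Nectin4 encodes an adhesion molecule of adherens junctions and Prom2 a pentaspan glycoprotein of plasma membrane protrusions. Rab25 encodes an epithelial relative of the RAB11 GTPases of recycling endosomes, and Ap1m2 the epithelial medium chain (mu1B) of the AP-1 clathrin adaptor, which sorts proteins to the basolateral membrane. Pof1b encodes an actin-binding protein of epithelial junctions, and Fmn1 a formin that builds unbranched actin filaments. Trim29 encodes a tripartite motif protein found in stratified epithelia. Slc40a1 encodes ferroportin, which exports iron from cells and is known in gut epithelium, macrophages and red cell precursors.

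Since ZEB factors bind CACCTG, the promoters that hold it are shown first. RefSeq promoter windows on GRCm38.p6, from 250 bases before to 50 after a start site, matched 6 of the 8 genes in 7 windows, of which 2 belonged to Fmn1; Trim29 and Slc40a1 had no entry. CACCTG on either strand stood in 3 of the 7 windows, those of Ap1m2, Rab25 and Pof1b, against 20.2% of all 32851 windows. The 250 bases before each of these start sites are given on the gene's strand, with every CACCTG, or its reverse complement CAGGTG, in capitals. They lie at chr9:21312334-21312583 (minus strand) for Ap1m2, chr3:88548280-88548529 (minus strand) for Rab25 and chrX:112698652-112698901 (minus strand) for Pof1b.
Ap1m2: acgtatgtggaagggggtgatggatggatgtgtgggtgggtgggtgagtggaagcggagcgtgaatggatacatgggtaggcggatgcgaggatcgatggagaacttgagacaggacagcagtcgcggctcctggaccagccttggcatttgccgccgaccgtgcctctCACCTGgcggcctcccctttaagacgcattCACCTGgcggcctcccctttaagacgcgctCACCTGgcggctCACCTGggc
Rab25: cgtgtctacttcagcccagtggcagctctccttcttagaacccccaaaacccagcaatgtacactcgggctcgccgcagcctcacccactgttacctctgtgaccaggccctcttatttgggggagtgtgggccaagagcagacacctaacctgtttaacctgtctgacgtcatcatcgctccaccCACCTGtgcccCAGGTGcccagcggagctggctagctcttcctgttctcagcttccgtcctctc
Pof1b: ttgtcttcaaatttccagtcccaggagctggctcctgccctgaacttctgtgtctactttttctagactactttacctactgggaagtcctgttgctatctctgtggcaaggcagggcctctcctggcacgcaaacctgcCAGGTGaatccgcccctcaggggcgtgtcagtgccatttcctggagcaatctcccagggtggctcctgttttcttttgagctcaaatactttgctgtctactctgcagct

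The Ap1m2 window held 4 copies, beginning at -81, -51, -21 and -9 from the start site, all on the gene's strand. At least 4 copies were present in 18 of the 32851 windows, a share of 0.0548%. The copies at -81 and -51 open stretches of 30 bases that are identical at 28 positions, so the promoter carries this piece in tandem. Rab25 held 2 copies in opposite directions, at -64 and -53, and at least 2 copies were found in 2.88% of all windows. Both cutoffs equal the counts of these windows, and Ap1m2 held the most of the 7, so the shares are descriptions only. Pof1b held 1, at -110 on the opposite strand. The shorter CACCT, which is contained in CACCTG, was in 6 of the 7 windows and in 51.9% of all windows, and the Prom2 window was the one without it. AACCNGTT, a core bound by grainyhead-like factors, was in 2 of the 7 windows, those of Rab25 and the second start of Fmn1, against 2.09% of all. GCCNNNGGC, bound by AP-2 factors, was in 2 against 16.6%, GGGCGG, bound by SP and KLF factors, in 3 against 35.7%, and TATAAA in 0 against 13.6%, all counted on both strands. Over the 13754 windows of genes tested, to which the 7 belong, the shares were 18.5% for the ZEB hexamer and 50.8% for its shorter form, 1.81% for the grainyhead-like core, 25% for the AP-2 motif, 62.3% for the SP and KLF motif and 7.15% for the TATA motif. The members' count of 3 for the SP and KLF motif thus lay above the share over all windows but below that over genes tested. A match describes letters in this window and shows no binding.

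Reads counted in genes numbered between 11491330 and 12716172 per library, and 24.1% to 35.7% of the reads counted in genes, outside them or as ambiguous fell outside genes. Levels are given as CPM, a gene's read count scaled to the size of its library after TMM, a method that evens out differences in composition. Zeb2 mRNA itself was at 98.3 and 164 CPM in untreated replicates 1 and 2 and at 102.5 and 108 CPM in dTAG-13 replicates 1 and 2. dTAG-13 is designed to act on the tagged protein, which was not measured, so the mRNA does not check the labels. Summed over the 8 genes, the level was 56.0 and 54.8 CPM in untreated replicates 1 and 2 and 131 and 243 CPM in the dTAG-13 libraries. Every gene had both dTAG-13 libraries above both untreated ones. Such separation was seen in 14.4% of all genes tested, and since the genes were picked on this contrast nothing is read from their count of 8. In whole gastruloids, more cells that express a gene and more RNA of it per cell cannot be told apart.

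**Figure D1:**
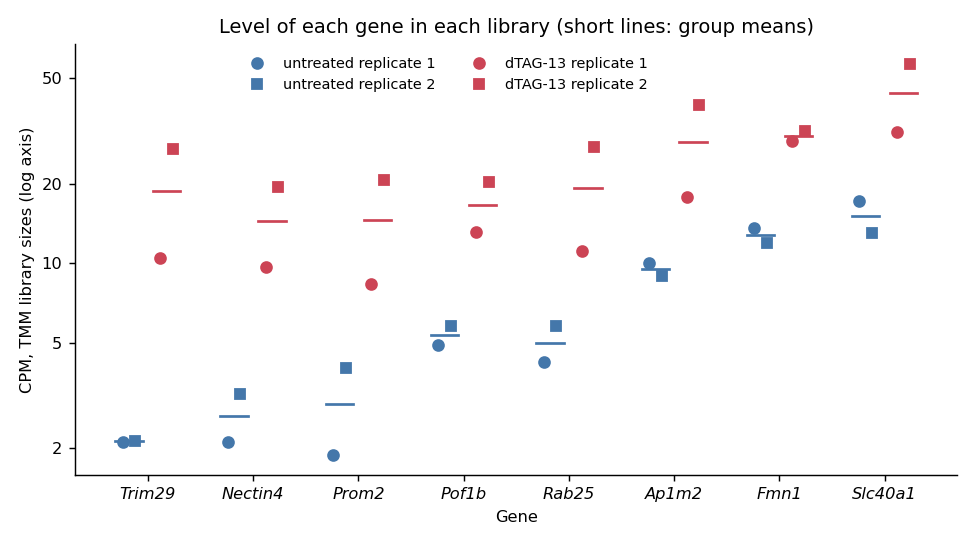
Level of each of the 8 genes in the 4 libraries, in CPM on a log axis; circles are replicate 1, squares replicate 2, blue untreated, red dTAG-13, and short lines the group means. Red points lie above blue points for every gene, and dTAG-13 replicate 2 is the highest library throughout.

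The adhesion gene Nectin4 (ENSMUSG00000006411.12; GRCm38 chromosome 1, 171370099 to 171388598, plus strand) was at 2.11 and 3.20 CPM in untreated replicates 1 and 2 and at 9.64 and 19.4 CPM in dTAG-13 replicates 1 and 2. The lower dTAG-13 library stood 3.01-fold above the higher untreated one, and the fitted log2 fold change was 2.38 ± 0.45 (SE). Prom2 (ENSMUSG00000027376.15; chromosome 2, 127526473 to 127541467, minus strand) was at 1.88 and 4.004 CPM untreated and at 8.36 and 20.7 CPM under dTAG-13, which gave a fitted log2 difference of 2.25 ± 0.59. Both surface protein genes were thus scarce in untreated gastruloids, where they rested on 25 to 45 reads per library. Of the 8 genes, Prom2 had the widest spread between untreated libraries, with replicate 2 at 2.13 times replicate 1.

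Both vesicle traffic genes were more abundant from the start. Rab25 (ENSMUSG00000008601.12; chromosome 3, 88542029 to 88548300, minus strand) was at 4.22 and 5.78 CPM in untreated replicates 1 and 2 and at 11.1 and 27.5 CPM in dTAG-13 replicates 1 and 2, a fitted log2 difference of 1.92 ± 0.49. Ap1m2 (ENSMUSG00000003309.14; chromosome 9, 21294275 to 21312337, minus strand) was at 10.0 and 8.99 CPM untreated and at 17.8 and 39.7 CPM under dTAG-13, which gave a fitted log2 difference of 1.58 ± 0.41. The untreated libraries of Ap1m2 were close together, while dTAG-13 replicate 2 was 2.23 times replicate 1. On a scale per kilobase of merged exons, which allows levels of different genes to be set side by side, Rab25 and Ap1m2 held ranks 1 and 2 among the 8 genes in every library, in changing order, with means of 2.99 and 3.03 CPM per kb untreated and 11.5 and 9.17 CPM per kb with dTAG-13. These lengths come from GENCODE M21 and may differ from the models used for counting.

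The actin-related genes changed with less spread. Pof1b (ENSMUSG00000034607.6; chromosome X, 112638431 to 112698651, minus strand) was at 4.90 and 5.78 CPM in untreated replicates 1 and 2 and at 13.1 and 20.2 CPM in dTAG-13 replicates 1 and 2, with group means of 5.34 ± 0.627 and 16.7 ± 5.001 CPM (SD, n = 2 each). Fmn1 (ENSMUSG00000044042.18; chromosome 2, 113327736 to 113716767, plus strand) was at 13.6 and 11.9 CPM untreated and at 29.1 and 31.7 CPM under dTAG-13, with means of 12.8 ± 1.21 and 30.4 ± 1.83 CPM. Fmn1 had the smallest change of the 8, a log2 fold change of 1.24 ± 0.19, and the least spread within the groups. Antisense genes overlap its exons in GENCODE M21, among them Gm13966 by 449 bases, and whether reads were counted by strand is not known here, so its reads and theirs cannot be told apart.

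Trim29 (ENSMUSG00000032013.6; chromosome 9, 43310848 to 43336115, plus strand) was at 2.11 and 2.13 CPM in untreated replicates 1 and 2 and at 10.5 and 26.9 CPM in dTAG-13 replicates 1 and 2. Its fitted log2 fold change, 3.04 ± 0.52, ranked 1 among the 13602 genes tested. The reads behind it numbered 28 and 24 in the untreated libraries and 123 and 317 in the treated ones. The iron exporter gene Slc40a1 (ENSMUSG00000025993.10; chromosome 1, 45908068 to 45926523, minus strand) was at 17.2 and 12.99 CPM untreated and at 31.2 and 56.8 CPM under dTAG-13, which gave a fitted log2 difference of 1.53 ± 0.33. It had the highest CPM of the 8 in every library, but per kilobase of exon it stood below Rab25 and Ap1m2.

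The size of the rise differed between the replicate numbers. The dTAG-13 library with number 2 was above the one with number 1 for all 8 genes, by 1.09 times for Fmn1 to 2.57 times for Trim29 with a median of 2.12, while over all genes tested the median was 1.00. In the untreated pair the corresponding ratios ran from 0.757 for Slc40a1 to 2.13 for Prom2, with 5 of 8 above 1. Within number 1 the median log2 difference of the 8 genes was 1.38, and within number 2 it was 2.17. The difference was larger in number 2 for 8 of 8, beside 49.4% of all genes tested. The genes were picked on differences within both numbers, so a high dTAG-13 replicate 2 enters their choice and nothing is read from this count. Ap1m2 was 1.78-fold higher in the dTAG-13 library of number 1 (95% exact binomial interval of counting error 1.43 to 2.23) and 4.42-fold higher in that of number 2 (3.56 to 5.54). Slc40a1 had ratios of 1.82 (1.54 to 2.15) and 4.37 (3.65 to 5.27), and Trim29 of 4.98 (3.28 to 7.79) and 12.6 (8.32 to 19.97). In these 3 genes the intervals of the 2 numbers did not overlap, and in the other 5 they did. The same was not counted over all genes tested, so nothing is read from this number. Such intervals compare single libraries and leave out all but counting error, and without molecular identifiers a read need not be an independent molecule. At least 2-fold higher in both numbers, on log2 CPM with a prior count of 2, were 6 of the 8, all but Ap1m2 and Slc40a1, against 0.787% of all genes tested; the choice of the genes used this contrast too.

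**Figure D2:**
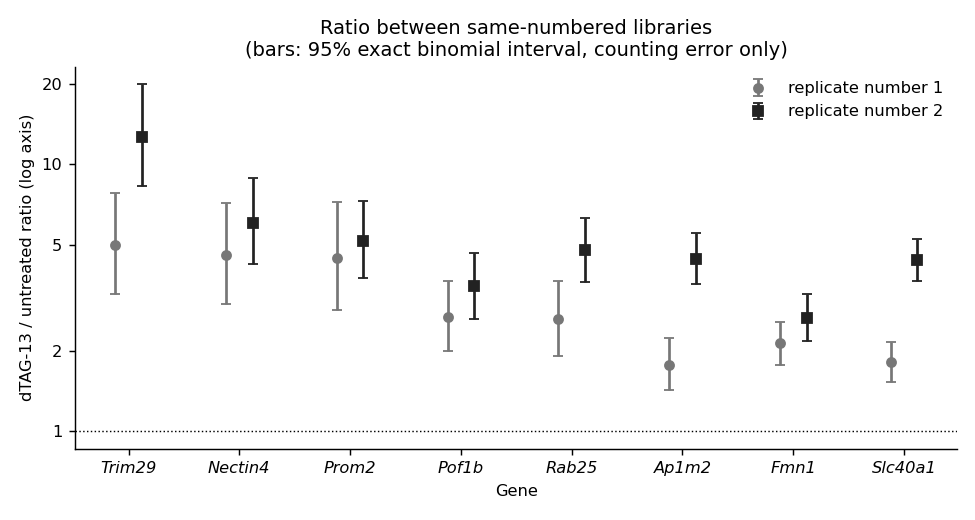
Ratio of the dTAG-13 to the untreated library within replicate number 1 (grey circles) and number 2 (black squares) for each gene, on a log axis, with 95% exact binomial intervals that cover counting error only. The intervals of the 2 numbers lie apart for Trim29, Ap1m2 and Slc40a1, and all lie above a ratio of 1.

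One library carried much of the size. Without dTAG-13 replicate 2 the log2 fold change was 2.20 for Trim29, 1.78 for Nectin4, 1.44 for Prom2, 1.11 for Rab25 and 0.88 for Ap1m2, each over 1.5 times smaller as a fold than with all libraries. Prom2 was 2.85 without untreated replicate 2. The sign was kept by all 8 genes without any one library, and Fmn1 moved only between 1.15 and 1.32. The difference between libraries numbered 2 and 1 was estimated in an edgeR fit that holds group and number. The genes were picked within both numbers, so a high dTAG-13 replicate 2 enters both the choice and this estimate, and the values are a description with no test. On the log2 scale the estimate was 1.20 ± 0.28 for Prom2, 0.95 ± 0.24 for Rab25, 0.94 ± 0.27 for Trim29, 0.84 ± 0.28 for Nectin4, 0.58 ± 0.19 for Ap1m2 and -0.02 ± 0.18 for Fmn1. Pof1b had an estimate of 0.46 ± 0.24 and Slc40a1 of 0.30 ± 0.17. In this fit 12.7% of all genes tested passed the threshold for the replicate number, in either direction. No call is read for the picked genes, since their choice used values of the same libraries. The fit assumes a shift of the same size in both groups. For Trim29, however, the untreated libraries were level, and for Ap1m2, Slc40a1 and Fmn1 untreated replicate 2 lay below replicate 1. In Trim29, Ap1m2 and Slc40a1 the positive estimate thus comes from the treated pair.

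The closest relatives of these genes, which serve related tasks in many cell types, had log2 fold changes between -0.22 and 0.81. Ap1m1, the medium chain (mu1A) found in most cells, was at 68.2 and 71.4 CPM in untreated replicates 1 and 2 and at 63.6 and 61.1 CPM under dTAG-13, which gave a fitted log2 difference of -0.16 ± 0.13. Rab11a was at 80.4 and 81.1 CPM untreated and at 87.8 and 90.4 CPM under dTAG-13, and Rab11b had a log2 fold change of 0.16 ± 0.17. Prom1, the paralog known as a stem cell surface marker, had a log2 fold change of -0.20 ± 0.16, and Fmn2 of -0.22 ± 0.31. Nectin3 was at -0.00 ± 0.13 and Nectin1 at 0.24 ± 0.17. Nectin2, a nectin of many epithelia, was read at 44.5 and 64.4 CPM without the degrader and at 68.7 and 121.9 CPM under dTAG-13, which gave a fitted log2 difference of 0.81 ± 0.34, so its groups did not overlap. None of these 8 relatives passed over all genes tested in the quasi-likelihood test of edgeR on group alone (each adjusted p = 1.00) or in DESeq2 (smallest adjusted p 0.810 for Nectin2). The edgeR fit passed 0 of 13602 genes in either direction, with 312 higher and 167 lower at an unadjusted p under 0.05, and DESeq2 passed 26 higher and 14 lower, so missing the threshold does not show that a relative was level. With the replicate number as a block Nectin2 passed as higher (edgeR adjusted p = 9.08e-07) and the other 7 did not. The labels name no such pairing. The block fit leaves 1 residual degree of freedom, so here and below its p-values lean on spread estimated over other genes. Of the 8 picked genes, those that passed as higher numbered 0 in edgeR on group alone and 7 in DESeq2, beside 0% and 0.221% of the genes tested. At an unadjusted p under 0.05 in edgeR they numbered 8, beside 2.29%. With that block the count was 8, beside 2.9%. All of these follow the contrast on which the genes were picked.

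Set against its relatives per kilobase, each of 4 picked genes took a larger part of its family with dTAG-13. The genes were picked for their rise on this contrast, so a larger share goes with that choice and is only described. Ap1m2 made up 12.97% and 11.3% of the summed level of Ap1m1 and Ap1m2 in untreated replicates 1 and 2, and 22.1% and 39.8% in the dTAG-13 libraries. Rab25 made up 6.84% and 8.62% of Rab11a, Rab11b and Rab25, and 14.8% and 29.0% with dTAG-13. Prom2 went from 1.91% and 3.13% of the prominins to 8.09% and 17.6%. Nectin4 went from 1.47% and 1.80% of the 4 nectins to 5.20% and 7.11%. The relatives together kept the larger share in every library, although Rab25, at 16.4 CPM per kb, stood above Rab11b, at 10.1, in dTAG-13 replicate 2. The share of each picked gene was highest in dTAG-13 replicate 2.

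**Figure D3:**
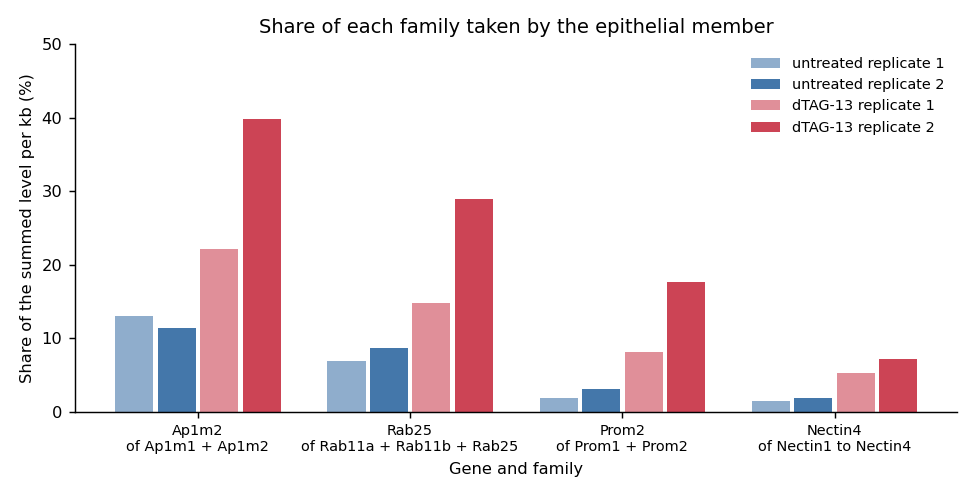
Share, in percent, of the summed level per kilobase taken by Ap1m2, Rab25, Prom2 and Nectin4 within its family, in each of the 4 libraries (blue untreated, red dTAG-13, darker replicate 2). Both red bars stand above both blue bars in each family, and the Ap1m2 share reaches 39.8% in dTAG-13 replicate 2. The 4 genes were picked for their rise, so the order of the bars goes with that choice.

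The partners of these proteins were described by lists, whose medians stand beside a median of 0.00 over all genes tested; no member of any of these lists passed in edgeR with the group as the only term or in DESeq2. Over all genes tested, 27.7% were higher and 23.9% lower in both replicate numbers, the background for the counts that follow. At an unadjusted p under 0.05 in edgeR, 2 protrusion genes, 1 traffic gene, 1 TRIM relative and 1 formin were higher and 1 formin was lower. Of all genes tested, 2.29% were higher and 1.23% lower at that level. With the replicate block in edgeR, which passed 2.9% of all genes as higher and 1.77% as lower, Nectin2, Podxl (adjusted p = 0.0362), Daam1 (5.49e-06), Mal2 (9.04e-05), Stx3 (0.0029) and Llgl2 (0.00547) passed as higher and Fhod3 (5.39e-05) as lower, and no other gene of these lists passed. The other AP-1 subunits had a median log2 fold change of 0.09, with 1 of 7 higher and 1 lower in both numbers. Ap1s3, a small chain, was at 0.49 ± 0.29. RAB11 proteins and their effectors had a median of 0.02, with 4 of 11 measured genes higher and 5 lower in both numbers. The myosin motor gene Myo5a was at -0.31 ± 0.16 and Zfyve27 at -0.23 ± 0.17. Nectins and their ligands had a median of 0.05, with 3 of 7 measured genes higher and 0 lower in both numbers. Genes of apical protrusions, among them the ezrin family, had a median of 0.36, with 8 of 10 higher in both numbers; Podxl, a sialomucin of apical membranes, was at 196 and 145.6 CPM untreated and at 271 and 213 CPM under dTAG-13, and Espn, an actin bundler, had a log2 fold change of 0.51 ± 0.19. Genes of epithelial sorting and apical vesicle traffic had a median of 0.16, with 13 of 19 higher in both numbers and 0 lower in both. Mal2, a raft protein of transcytosis, was at 1.81 and 4.18 CPM untreated and at 4.26 and 13.6 CPM under dTAG-13, and the syntaxin gene Stx3 at 0.59 ± 0.19 on the log2 scale.

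Of the lists nearer to the cytoskeleton, TRIM proteins and iron, all but non-muscle actomyosin lay close to all genes. The other formins had a median of 0.08, with 3 of 13 higher and 3 lower in both numbers, and included the planar polarity formin Daam1 at 0.71 ± 0.19 and Fhod3, known in heart muscle, at -0.85 ± 0.19. Non-muscle actomyosin genes had a median of 0.17 with 7 of 12 higher in both numbers, beside 27.7% of all genes tested. Actg1, a cytoplasmic actin, was at 0.31 ± 0.14, Tpm3 at 0.21 ± 0.14 and Myh9 at 0.02 ± 0.23. TRIM relatives had a median of 0.07 with 3 of 11 higher in both, and Trim16 was at 0.63 ± 0.49 and Trim25 at 0.40 ± 0.15. Genes of iron uptake, storage and export had a median of 0.03, with 3 of 15 higher and 3 lower in both numbers. Tfrc, the transferrin receptor, was at 296 and 281 CPM untreated and at 342 and 237 CPM under dTAG-13. Of the ferritin chains, Fth1 was at 0.18 ± 0.18 and Ftl1 at 0.25 ± 0.16 on the log2 scale, and Heph, a ferroxidase that works with ferroportin, was at 23.5 and 8.36 CPM untreated and at 25.3 and 10.4 CPM under dTAG-13. The zinc and iron importer gene Slc39a14 was at -0.24 ± 0.15. The difference in Slc40a1, which was picked for its size, thus stood beside smaller ones in the measured genes of iron handling.

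The genes next to the picked ones on their chromosomes were compared as well, a choice made after the count tables were seen. The nearest tested gene on each side gave 16 neighbours, with 8 higher and 8 lower, a median log2 fold change of -0.01 and a range from -0.61 for Zfp661, beside Prom2, to 0.59 for Slc44a2, beside Ap1m2. None passed in the quasi-likelihood test of edgeR on group alone (smallest adjusted p = 1.00, 0 at an unadjusted p under 0.05) or in DESeq2. With the replicate block in edgeR Slc44a2 passed as higher (adjusted p = 0.00267) and the other 15 did not. Of all genes tested, 2.9% passed as higher with that block. Mex3a lies 632 bases from Rab25 and was at 203 and 179 CPM untreated and at 223 and 171.5 CPM under dTAG-13. Lamtor2, 1518 bases away on the other side, had a log2 fold change of -0.04 ± 0.20. Arhgap30 begins 355 bases after Nectin4 and had 0.34 ± 0.30. Slc44a2, 8360 bases from Ap1m2, was at 59.4 and 59.6 CPM untreated and at 64.9 and 114 CPM under dTAG-13, so that its difference lay mostly in replicate 2, as did that of Ap1m2.

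**Figure D4:**
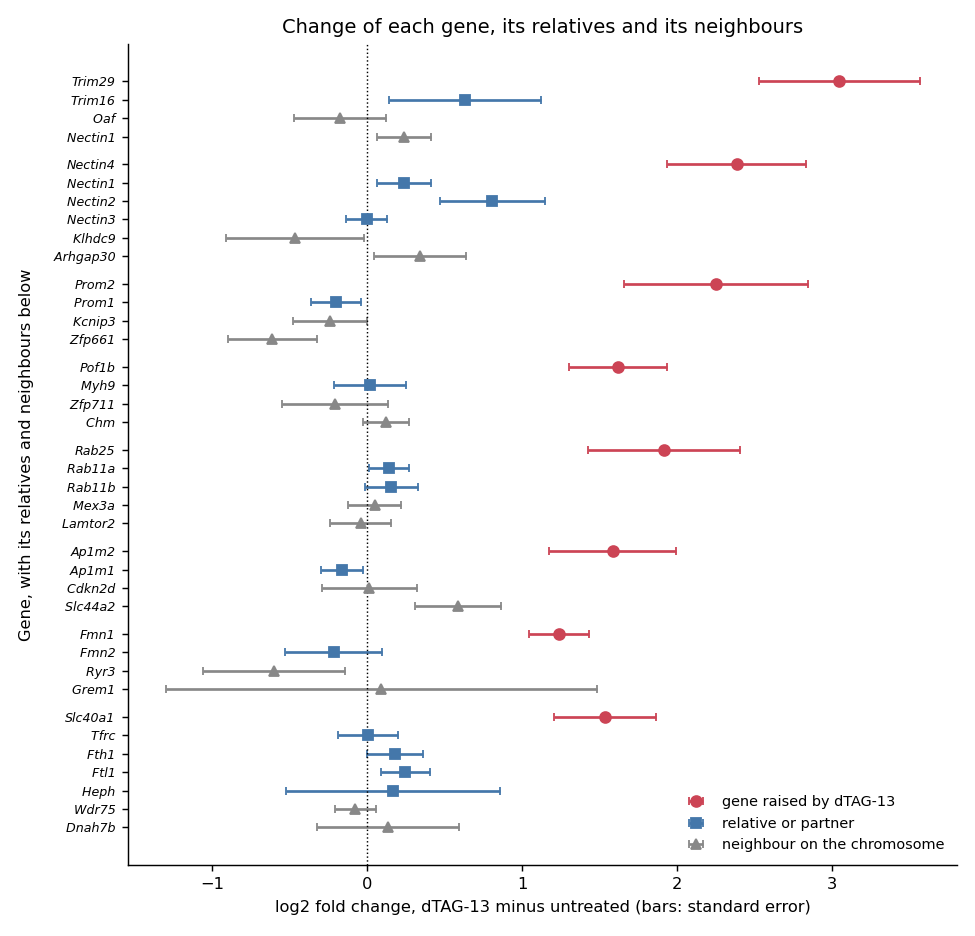
Log2 fold change of dTAG-13 over untreated, with its standard error, for the 8 picked genes (red circles) and, below each, its relatives or partners (blue squares) and the nearest tested genes on the chromosome (grey triangles). The picked genes, chosen for their rise on this contrast, lie between 1.24 and 3.04, and the others between -0.61 and 0.81.

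Among 13454 other genes whose mean log2 CPM reached 0, those most like the picked genes over the 4 libraries were found by the Euclidean distance between their centred log2 CPM and the mean centred profile of the 8. The closest was Aldh3b2, an aldehyde dehydrogenase, at a distance of 0.227, followed by Bnipl, Slitrk6, Naaladl2, Cldn7, Plch2, Rbbp8nl, Sptlc3, Esrp2 and, at 0.421, Irx4. Of the picked genes, Rab25 was nearest to their mean, at 0.308, and Trim29 and Fmn1 were farthest, at 1.06 and 0.907. Cldn7, a claudin of epithelial tight junctions, was at 14.01 and 14.7 CPM untreated and at 30.4 and 57.1 CPM under dTAG-13. Esrp2, an epithelial splicing regulator, was at 6.10 and 9.25 CPM untreated and at 15.4 and 36.3 CPM under dTAG-13. Both repeat the order of the libraries seen in Rab25, lowest in untreated replicate 1 and highest in dTAG-13 replicate 2. These genes were chosen for their likeness over only 4 libraries, so they carry no test.

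Marker lists of cell types stand beside these values. Presomitic and somite genes, such as Tbx6 and Meox1, were read in every library, as the label of the cultures asks, with a summed level of 286 and 166.5 CPM in untreated replicates 1 and 2 and 147 and 90.2 CPM under dTAG-13 (7 of 8 lower in both numbers). Neural tube markers summed to 184 and 344 CPM and, with dTAG-13, to 134 and 186 CPM (6 of 6 lower in both). Markers of surface ectoderm, the origin of epidermis, summed to 35.0 and 43.7 CPM untreated and to 86.3 and 147 CPM under dTAG-13. All 8 of its 10 genes that had enough reads were higher in both numbers, with a median log2 fold change of 1.36, but Krt14, a defining keratin of basal epidermis, had 0 to 2 reads per library. Tfap2a, an AP-2 factor, was at 4.75 and 1.96 CPM untreated and at 11.9 and 11.4 CPM under dTAG-13, and Trp63, the p63 gene, rested on 7 and 3 reads untreated and 16 and 31 with dTAG-13. Most of the sum in dTAG-13 replicate 2 came from Dlx3 and Dlx5, at 66.1 and 49.2 CPM. The groups overlapped for Dlx3, Gata3, Wnt6 and Krt5, with Dlx3 at 26.2 CPM in untreated replicate 2 and 17.7 CPM in dTAG-13 replicate 1. Gut endoderm markers summed to 632 and 739 CPM untreated and to 926 and 1421 CPM under dTAG-13, with 7 of 8 measured genes higher in both; Cldn6 and Foxa2 had log2 fold changes of 1.39 ± 0.36 and 0.70 ± 0.20, and Hhex had 0 reads throughout. Of the others on that list, the general epithelial genes Cdh1 and Epcam had log2 fold changes of 0.93 and 0.94, while Sox17, Foxa1, Trh and Spink1 had 0.24, 0.05, 0.28 and 0.38. Cdh1 alone was at 174 and 310 CPM untreated and at 302 and 619.5 CPM under dTAG-13. Epcam was at 94.3 and 130 CPM untreated and at 161 and 268 CPM under dTAG-13. A large part of the summed gut level thus came from these general epithelial genes. In edgeR on group alone 0 markers of these 4 lists passed, with 3 surface ectoderm and 3 gut genes higher and 5 somite and 5 neural genes lower at an unadjusted p under 0.05, beside 2.29% of all genes tested as higher and 1.23% as lower. In DESeq2 1 surface ectoderm gene (Dlx5, adjusted p = 0.0104) and 1 gut gene (Cldn6, 0.00665) passed as higher, and 2 neural genes (Sox1, 0.025, and Irx3, 0.0435) as lower, beside 0.221% and 0.119% of the genes it tested. With the replicate block in edgeR, 6 surface ectoderm and 4 gut genes passed as higher, beside 2.9% of all genes tested. As lower, 6 somite and 5 neural genes passed with that block, beside 1.77%. The part of these cell types in the level of the 8 genes was not tested.

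The other marker lists were described in the same way. Median log2 fold changes were 0.98 for trophoblast, 0.75 for primordial germ cell, 0.49 for pluripotency, 0.43 for visceral endoderm and -0.10 for notochord markers, beside 0.54 for gut endoderm. Elf5, a trophoblast transcription factor, was at 2.38 ± 0.77 on 1 to 26 reads per library. With the replicate block in edgeR, 6 trophoblast, 4 pluripotency, 2 germ cell and 1 visceral endoderm genes passed as higher, beside 2.9% of all genes tested. Trophoblast markers summed to 172 and 275.5 CPM untreated and to 244 and 325 CPM under dTAG-13 (7 of 8 measured higher in both, Tpbpa at 0 reads). Cdx2, which was lower in both numbers, was the largest part of the untreated trophoblast sums, at 83.4 and 181 CPM. Primordial germ cell markers summed to 86.5 and 109.5 against 134 and 221 CPM (5 of 6 higher in both). Pluripotency markers summed to 268.5 and 351 against 324 and 518 CPM (7 of 7 higher in both). The lists share genes, so their counts and sums are not separate. Tfap2c is on the trophoblast and germ cell lists, at 32.2 and 76.8 CPM untreated and at 55.9 and 157 CPM under dTAG-13. Gata3 is on the trophoblast and surface ectoderm lists. Visceral endoderm markers summed to 69.6 and 34.7 against 85.6 and 34.5 CPM, with 4 of 5 measured genes higher in both and Afp and Apoa4 at 0 reads. Notochord markers summed to 78.6 and 93.1 against 61.2 and 99.8 CPM (1 of 5 higher and 3 lower in both). Slc40a1 is also known in red cells and macrophages. Erythroid markers summed to at most 1.28 CPM in any library, with Hba-x, Hbb-y and Hba-a1 at 0 reads, and macrophage markers to at most 6.55 CPM, nearly all of it Cd68, with Aif1 and Ptprc at 0 reads.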

How the data were processed

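Total RNA was depleted of ribosomal RNA and sequenced, per the labels' protocols. The submitters' processing notes name, without roles, STAR 2.7.6a, HTSeq 0.12.4, fastp 0.20.1 and DESeq2 1.34.0, with mm10 and GRCm38.p6 as builds. Neither the annotation nor the strand setting is stated in these sources. The values the authors deposited are raw counts of reads per gene symbol, 1 table per library. Summary lines that name no gene (24.1% to 35.7% of reads outside genes) stayed out of library sizes and tests. Groups and replicate numbers came from the sample titles.

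The 8 genes, the gene lists and the tests were chosen with earlier results of these data known. Counts were fitted with edgeR 4.0.16 in R 4.3.3: filterByExpr (minimum count 10, minimum total 15), TMM, robust glmQLFit with the group as the only term, 2 residual degrees of freedom, a two-sided glmQLFTest and Benjamini-Hochberg adjustment over 13602 genes at 0.05. Log2 fold changes use a prior count of 2, and their SE is the test's own fold divided by the square root of F. Named genes were the 8 picked ones, their nearest relatives and, per list, the 2 of smallest p whose mean log2 CPM reached 0; other names were chosen after their values were seen. Mfsd7b, on the iron list, was not analysed here. The fit and DESeq2 1.42.0, an alternative, were tested on simulated counts. Their spread was set smaller than that of these data, where the root of the common dispersion was 21.7%. That test therefore does not show how the fits perform here. Other scalings, filters, a prior count of 0.5, the replicate block, which leaves 1 residual degree of freedom, and leaving out each library were also tried.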

Additional observations from a re-analysis of the deposited data

How the results depend on the processing

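The median log2 fold change of the 8 genes was 1.76 with all libraries. Over 12 alternatives its lowest value was 1.21, without dTAG-13 replicate 2, and its highest 2.23, without dTAG-13 replicate 1. All 8 genes kept both dTAG-13 libraries (or the one left) above the untreated ones. That separation was fixed for the replicate block and the prior count, which use the same CPM. Leaving out a library could hardly undo it either. Of 96 values of single genes, 90 moved by less than the within-group SD, 6 moved by more, all without dTAG-13 replicate 2, which itself widens that SD, and 0 changed sign. Genes past the threshold between dTAG-13 and untreated numbered 0 in edgeR and 40 with DESeq2. The replicate numbers pair nothing that the labels name; deviations of same-numbered libraries correlated at r = 0.631 over 13602 genes, which is a hint from the data and not the design. With the replicate block 636 genes passed, 395 higher and 241 lower, all 8 picked genes among them, and the median was 1.71. Genes that differed between replicate numbers 2 and 1 numbered 1729, against 1036 with unscaled library sizes, 652 with DESeq2 and 506 with the number as the only term; the cause was not tested. Levels of Trim29, Nectin4 and Prom2 rest on 24 to 45 reads per untreated library, which limits their folds.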
